A study of Mus musculus with 8 samples.

Results

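The 49 genes described here encode non-collagen glycoproteins and small proteoglycans of the extracellular matrix. They were taken by symbol from a fixed list, with no measured value in the rule, and all 49 were found among the 41388 genes of the deposited tables. RNA was sequenced from sorted macrophages of epididymal white adipose tissue, the fat depot beside the epididymis, from 4 male mice of the MitoFat strain, fed normal chow. In this strain a reporter marks the mitochondria of adipocytes, and each animal gave 1 population of macrophages that carried the reporter signal (mtD2+) and 1 that did not (mtD2-). Both came from collagenase-freed stromal cells and from 1 gate of viable CD45+ F4/80+ CD64+ cells, CD45 marking leukocytes and the others macrophages. The labels give each library's mouse, so the 8 libraries form 4 pairs within mice. The comparison asks how macrophages that received mitochondria from adipocytes differ from macrophages of the same fat depot that did not. The labels describe the reporter as specific to adipocytes, and they give neither its promoter nor the age of the mice nor the number of cells sorted.

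The matrix around adipose cells is built mainly by fibroblasts and adipocyte precursors. Small leucine-rich proteoglycans such as decorin bind collagen fibrils and set their width. Fibrillins, fibulins and elastin form elastic fibres, and laminins and nidogens form the basement membrane around adipocytes and vessels. Macrophages take up and degrade matrix more than they build it, but they do secrete some of its proteins, among them fibronectin and thrombospondin. The genes were therefore divided by role, with 4 kept apart as genes that macrophages or monocytes make (Fn1, Thbs1, Vcan and Ecm1). These 4 were taken from general knowledge of such cells, with earlier results of these data known.

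The tables held 18462287 to 27464399 gene-assigned counts per library. Of 13933 genes with enough counts to test, 767 (5.50%) passed the test, 519 higher and 248 lower in mtD2+. With library totals in place of TMM scaling, 53.8% of the calls were higher, against 67.7%. A gene was called when edgeR's quasi-likelihood F test, with the mouse as a block, gave a Benjamini-Hochberg adjusted p under 0.05. All adjusted p-values below come from that test unless another is named. Levels are counts scaled to library size by TMM (CPM), and every log2 fold change is mtD2+ over mtD2-. The first principal component (28.4% of the variance) placed the mtD2+ libraries between 15.1 and 43.2. It placed those of mtD2- between −49.7 and −8.8, with mouse 4 farthest out. Fold changes, counts of calls and summed ratios were therefore also computed without mouse 4, and without each other mouse in turn.

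Transcripts of proteoglycans, fibulins, Sparc-type and other connective tissue proteins were scarcer in the mtD2+ libraries than in the mtD2- libraries, and no member rose. Bulk RNA of a sorted population does not tell which of its cells made these transcripts. Of 48 members tested, 20 fell, 0 rose and 28 did not pass the test. Over all genes tested, 1.78% fell and 3.72% rose. No member was higher at an unadjusted p under 0.05 either, whereas 35 were lower. The share of all tested genes past that unadjusted threshold was not counted, here or for the lists below. With DESeq2 30 were lower and 0 higher (4.89% of all tested genes were lower), and with limma voom 23 and 0 (2.67%). The median log2 fold change was −1.54 over the 48 members, against −0.001 over all tested genes. All 20 were among the 44 tested members outside the macrophage-made set, whose median was −1.60, while 0 of the 4 macrophage-made genes passed. The macrophage-made set was named with earlier results of these data known, so this contrast is description only. Without the mouse in the model 12 members fell, against 0.510% of all genes tested. Leaving out mouse 1, 2, 3 or 4 gave 11, 16, 10 or 16 lower members. The 1 member not tested was Tnc (tenascin C), which had 54 counts in the mtD2+ library of mouse 2 and at most 2 in any other library.

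**Figure D1:**
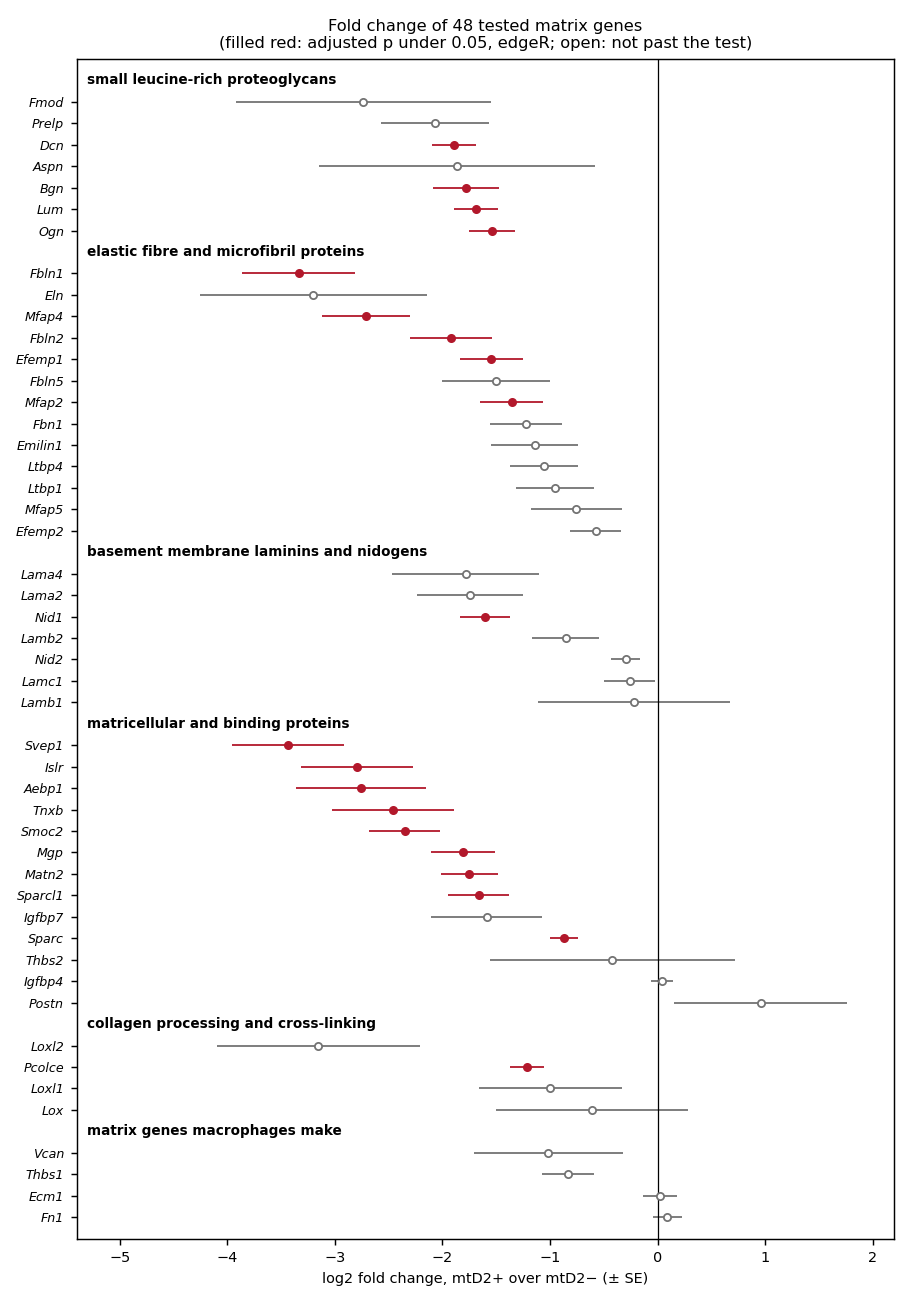
Log2 fold change (horizontal axis, mtD2+ over mtD2-, bars are ± SE) of the 48 tested matrix genes, grouped by role. The 20 filled red points passed an adjusted p of 0.05 and all lie left of 0, while Fn1, Ecm1 and Igfbp4 sit at 0.09, 0.02 and 0.04.

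The groups of libraries were often fully parted. For 26 of the 48 members every mtD2+ library lay below every mtD2- library, as was so for 6.01% of all tested genes, and the reverse held for 0 members, against 6.55% of all tested genes. The ratio was below 1 in all 4 mice for 32 members, against 16.0% of all tested genes. Within single mice the median log2 ratio over the 48 members, taken on CPM plus 0.5, was −1.13, −0.93, −1.38 and −1.57 in mice 1 to 4. It was therefore below 0 in each mouse, smallest in size in mouse 2 and largest in mouse 4. The same median over all tested genes was not taken within single mice.

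**Figure D2:**
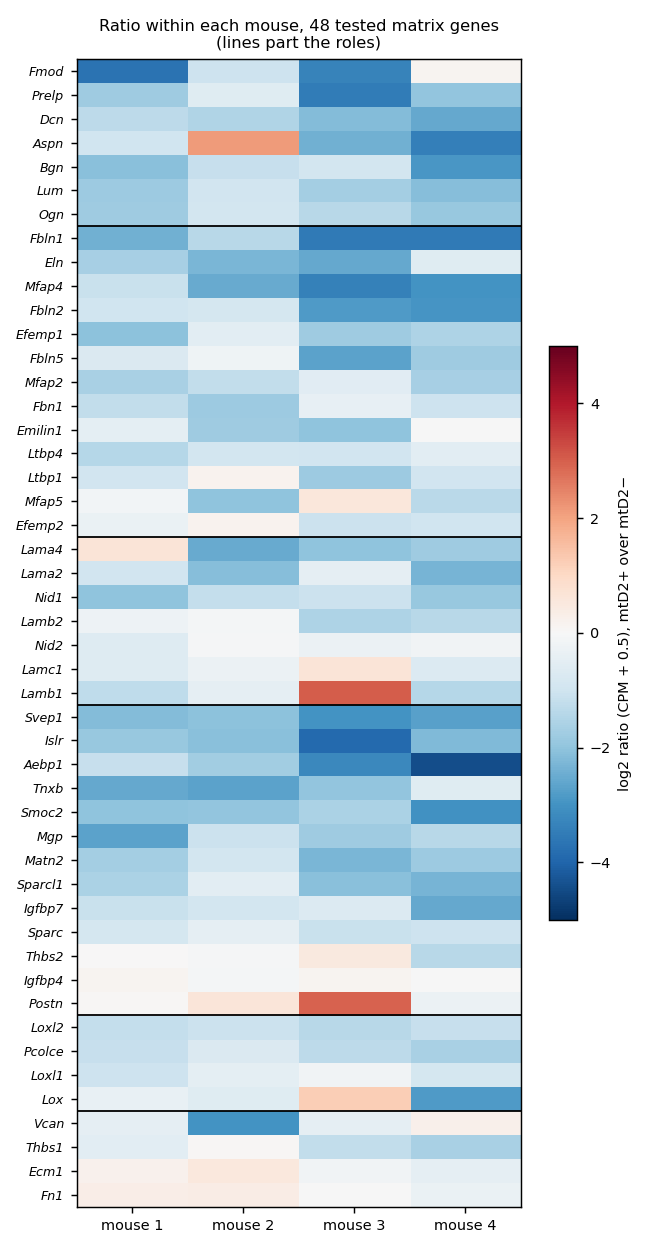
Log2 ratio of CPM plus 0.5, mtD2+ over mtD2-, in each of 4 mice (columns) for the 48 tested members (rows, lines part the roles). Blue cells are lower in mtD2+. Blue fills most of every column, with 42, 41, 41 and 46 members lower in mice 1 to 4. The share of all tested genes lower in each single mouse was not counted.

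The members made up little of the RNA. The 49 genes took 0.173 ± 0.0211% of the counts in mtD2+ and 0.290 ± 0.0359% in mtD2- (SD, n = 4 each). Their summed level was 1889, 1987, 1487 and 1711 CPM in the mtD2+ libraries of mice 1 to 4, against 2729, 2521, 2511 and 3729 CPM in the mtD2- libraries. Without the 4 macrophage-made genes it was 1079, 1299, 838 and 1055 CPM in mtD2+, against 1985, 2001, 1769 and 2739 CPM in mtD2-. These sums do not overlap, and the mean log2 ratio within mice was −0.99 (SD 0.32), or −0.86 without mouse 4. For the macrophage-made genes alone the sums did overlap, at 810, 688, 649 and 656 CPM in mtD2+ against 744, 519, 741 and 991 CPM in mtD2-.

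A few members dominated both populations, and their order by level per length differed. Per kilobase of the gene length given in the tables, Dcn was the most abundant member in mtD2- (51.7 CPM per kilobase in mtD2+ and 203 in mtD2-), whereas Ecm1 was the most abundant in mtD2+ (141 in mtD2+ and 141 in mtD2-). Next to these, Sparc stood at 86.5 CPM per kilobase in mtD2+ and 154 in mtD2-, and Igfbp4 at 74.5 in mtD2+ and 73.2 in mtD2-. In mtD2+ the order from the top was Ecm1, Sparc, Igfbp4 and Dcn, while in mtD2- it was Dcn, Sparc, Ecm1 and Igfbp4.

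**Figure D3:**
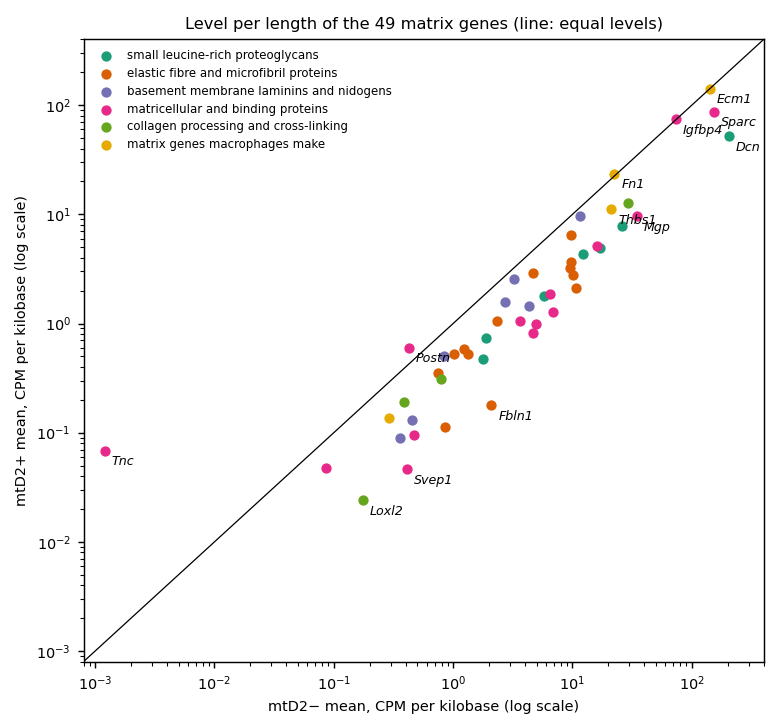
Mean level per length of the 49 members (CPM per kilobase, both axes logarithmic, mtD2+ upwards and mtD2- to the right, 1 point per gene, line of equal levels). Most points lie below the line. Ecm1, Igfbp4 and Fn1 lie on it, and Tnc stands alone at the left, where the mtD2- mean rests on 1 count.

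To show members of both kinds at the level of sequence, the region from 250 bases before to 50 bases after the start is printed for 2 abundant genes that fell (Bgn and Sparc) and 2 whose level did not pass the test (Igfbp4 and Ecm1). The sequences are from RefSeq on build GRCm38.p6, given 5′ to 3′ on the strand of the gene. Capitals mark TATAAA, the TATA box, and GAGGAA or its reverse complement, a core bound by PU.1, a lineage factor of macrophages.
Bgn, chrX:73483351-73483650, plus strand: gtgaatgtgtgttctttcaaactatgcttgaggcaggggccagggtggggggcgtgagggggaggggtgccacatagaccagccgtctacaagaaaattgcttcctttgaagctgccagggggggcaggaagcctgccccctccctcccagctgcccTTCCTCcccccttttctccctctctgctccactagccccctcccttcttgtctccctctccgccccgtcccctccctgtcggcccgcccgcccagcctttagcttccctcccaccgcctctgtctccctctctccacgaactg
Sparc, chr11:55420031-55420330, minus strand: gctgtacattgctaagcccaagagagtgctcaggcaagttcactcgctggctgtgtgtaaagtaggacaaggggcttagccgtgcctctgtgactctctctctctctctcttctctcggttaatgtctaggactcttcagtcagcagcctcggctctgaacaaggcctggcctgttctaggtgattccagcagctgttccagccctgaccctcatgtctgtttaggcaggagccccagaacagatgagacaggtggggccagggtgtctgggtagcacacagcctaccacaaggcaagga
Igfbp4, chr11:99040994-99041293, plus strand: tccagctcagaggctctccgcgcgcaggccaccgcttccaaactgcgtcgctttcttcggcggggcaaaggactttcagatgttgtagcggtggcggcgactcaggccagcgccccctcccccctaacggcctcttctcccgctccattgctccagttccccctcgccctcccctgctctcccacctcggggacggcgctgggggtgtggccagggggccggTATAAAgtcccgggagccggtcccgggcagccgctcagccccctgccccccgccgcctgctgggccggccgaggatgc
Ecm1, chr3:95739520-95739819, minus strand: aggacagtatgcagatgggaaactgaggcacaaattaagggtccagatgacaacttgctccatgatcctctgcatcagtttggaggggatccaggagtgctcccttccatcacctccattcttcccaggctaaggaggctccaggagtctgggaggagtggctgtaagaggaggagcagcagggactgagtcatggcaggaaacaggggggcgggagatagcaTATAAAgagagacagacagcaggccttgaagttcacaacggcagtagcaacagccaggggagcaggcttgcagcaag

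In these windows TATAAA was found in Igfbp4 and Ecm1, 28 and 27 bases before the start, GAGGAA only in Bgn, and none of the 5 motifs searched in Sparc. Promoters on chromosome 18, where Lox lies, were left out of the search. The promoters kept cover 32 of the 49 members. Searched on both strands, TATAAA was in 7 of the 32 (2 of 13 that fell and 5 of the 19 others), against 14.2% of 27025 gene promoters. GAGGAA was in 10 of the 32 (5 of 13 and 5 of 19), against 28.3%. The GC box GGGCGG was in 17 of the 32 (7 of 13 and 10 of 19), against 35.9%, and CCAAT was in 12 (1 of 13 and 11 of 19), against 37.9%. The AP-1 site TGANTCA was in 3 (2 of 13 and 1 of 19), against 7.93%. No motif searched contains another. A match describes these letters only.

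Of the 7 small leucine-rich proteoglycans, the collagen-binding core proteins of connective tissue, 4 fell, against 1.78% of all genes tested. The log2 fold changes of all 7 lay between −2.74 and −1.54. Dcn (decorin, chromosome 10, 97479500 to 97518162) stood at 119, 108, 88.1 and 116 CPM in the mtD2+ libraries of mice 1 to 4, against 299, 307, 394 and 694 CPM in the mtD2- libraries. The mtD2+ libraries were close to each other and far below every mtD2- library, of which mouse 4 was the highest. The log2 fold change was −1.89 (SE 0.20, adjusted p = 0.00269). Lum (lumican, chromosome 10, 97565501 to 97572703), which regulates fibril spacing, stood at 17.1, 20.9, 8.42 and 18.7 CPM in mtD2+, against 62.1, 40.6, 28.6 and 84.6 CPM in mtD2-. Its groups did not overlap, and it fell by 1.69 on the log2 scale (SE 0.21, adjusted p = 0.00413). Bgn (biglycan, chromosome X, 73483602 to 73495933), the close relative of decorin whose promoter is printed above, stood at 21.2, 32.5, 44.0 and 21.4 CPM in mtD2+, against 93.3, 73.7, 82.6 and 166 CPM in mtD2-. Bgn fell by 1.78 (SE 0.31, adjusted p = 0.0142), again with no overlap.

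Ogn (osteoglycin, also called mimecan) stood at 6.43, 18.4, 9.21 and 10.2 CPM in mtD2+, against 23.2, 35.7, 24.8 and 39.6 CPM in mtD2-. It fell by 1.54 (SE 0.21, adjusted p = 0.00672), with every mtD2+ library below every mtD2- library. Dcn, Lum and Ogn passed in each of the 4 fits that left out a mouse. Bgn lost its call without mouse 1, and its fold change over the fits without each mouse lay between −2.08 and −1.40. Prelp, which anchors basement membranes to collagen, stood at 4.29, 11.7, 0.354 and 9.73 CPM in mtD2+, against 15.9, 18.0, 9.21 and 40.1 CPM in mtD2-. These groups overlapped and the value lay just outside the threshold (−2.07, SE 0.51, adjusted p = 0.0501). Prelp was called by DESeq2 (adjusted p = 1.39e-05) and by limma voom (adjusted p = 0.0289). Fmod (fibromodulin) and Aspn (asporin) had fewer counts and standard errors of 1.19 and 1.28 around fold changes of −2.74 and −1.87. In each, 1 mouse went the other way. Fmod was at 2.55 CPM in mtD2+ and 2.25 CPM in mtD2- of mouse 4, and Aspn at 3.67 and 0.454 CPM in mouse 2.

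**Figure D4:**
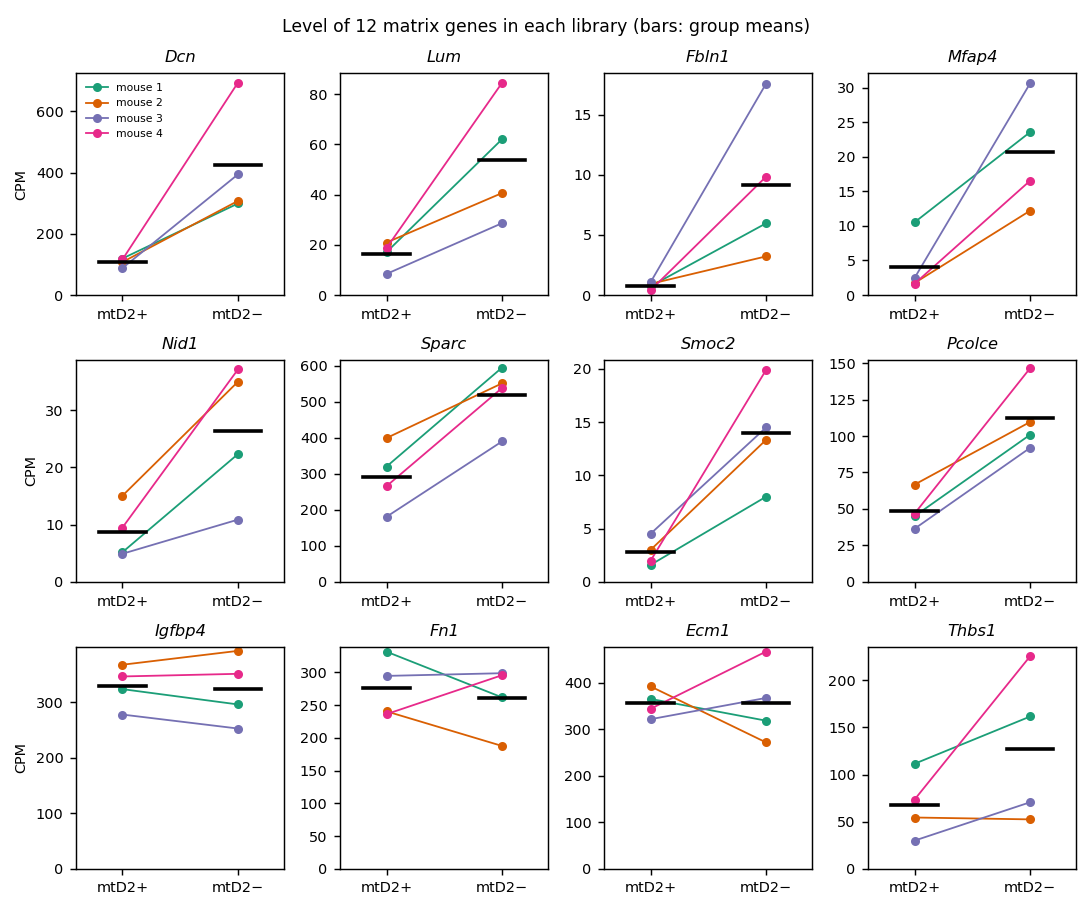
CPM of 12 members in each library, with mtD2+ on the left, mtD2- on the right, 1 coloured line per mouse and black bars at the group means. Each axis starts at 0. The lines climb towards mtD2- in all 4 mice for Dcn, Lum, Fbln1, Mfap4, Nid1, Sparc, Smoc2 and Pcolce, and cross or stay level for Igfbp4, Fn1 and Ecm1.

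Genes of elastic fibres and microfibrils, the stretchable scaffold of the tissue, had negative fold changes in all 13 cases. Of the 13, 5 fell, against 1.78% of all genes tested. The steepest drop was in Fbln1 (fibulin 1, chromosome 15, 85205949 to 85286535), which binds elastin, fibronectin and laminin. It stood at 0.729, 0.928, 1.06 and 0.396 CPM in mtD2+, against 5.96, 3.21, 17.6 and 9.84 CPM in mtD2-. Every mtD2+ library was thus at about 1 CPM or less, and the fold change was −3.34 (SE 0.53, adjusted p = 0.0104). Mfap4, a microfibril-associated glycoprotein (chromosome 11, 61485431 to 61488900), stood at 10.5, 1.74, 2.48 and 1.64 CPM in mtD2+, against 23.6, 12.2, 30.7 and 16.6 CPM in mtD2-. It fell by 2.71 (SE 0.41, adjusted p = 0.00905), with mouse 1 set apart as the highest mtD2+ library. Fbln2 (fibulin 2, chromosome 6, 91212455 to 91272540) stood at 23.0, 22.6, 7.71 and 11.5 CPM in mtD2+, against 46.4, 41.8, 57.3 and 91.0 CPM in mtD2-. It fell by 1.92 (SE 0.38, adjusted p = 0.0240), most in mice 3 and 4.

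Efemp1 (fibulin 3) stood at 3.10, 6.90, 7.09 and 9.34 CPM in mtD2+, against 14.3, 10.2, 25.6 and 27.8 CPM in mtD2-. Mfap2, which binds fibrillin, stood at 4.06, 3.78, 5.36 and 4.64 CPM in mtD2+, against 13.4, 9.49, 8.28 and 15.5 CPM in mtD2-. Neither gene's groups overlapped, and they fell by 1.55 (SE 0.29, adjusted p = 0.0198) and 1.36 (SE 0.29, adjusted p = 0.0330). None of the 5 passed in all 4 fits that left out a mouse. Fbln1 lost its call without mouse 3 (−3.86 to −2.96 over the fits without each mouse), Fbln2 without mouse 3 or 4 (−2.29 to −1.56) and Mfap4 without mouse 2 or 3 (−3.25 to −2.38). Efemp1 lost it without mouse 1, 3 or 4 (−1.87 to −1.34) and Mfap2 without any 1 mouse (−1.59 to −1.23). The calls of Efemp1 and Mfap4 were also lost without the mouse in the model (adjusted p = 0.0657 and 0.0641).

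The other 8 elastic fibre genes did not pass the test. Their fold changes were −3.20 for Eln (elastin itself), −1.502 for Fbln5, −1.22 for Fbn1 (fibrillin 1, the backbone of microfibrils), −1.14 for Emilin1 and −0.58 for Efemp2, with SE of 0.24 to 1.06. Eln, Fbn1, Fbln5 and Emilin1 had every mtD2+ library below every mtD2- library. For Emilin1 the gap was slight, from 7.525 CPM in mtD2+ to 7.543 CPM in mtD2-, both in mouse 4. For Fbln5 it ran from 5.71 CPM (mtD2+, mouse 2) to 6.04 CPM (mtD2-, mouse 1). Fbn1 shares 2442 exon bases with the opposite-strand gene Gm9913. The latent TGF-beta binding proteins Ltbp1 and Ltbp4, which store the growth factor TGF-beta in the matrix, had values of −0.95 and −1.06 (adjusted p = 0.162 and 0.0862), and Mfap5 had −0.76 (adjusted p = 0.330). DESeq2 called 10 of the 13 lower (4.89% of all tested genes were) and limma voom 5 (2.67%).

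Basement membrane genes differed among themselves. Of 7 laminin and nidogen genes, 1 fell, against 1.78% of all genes tested. The median log2 fold change of −0.85 was smaller in size than in the roles above. Nid1 (nidogen 1, chromosome 13, 13437602 to 13512275), which links laminin to type IV collagen, stood at 5.20, 15.1, 4.92 and 9.51 CPM in mtD2+, against 22.4, 35.0, 10.9 and 37.2 CPM in mtD2-. The groups overlapped because mouse 2 was high and mouse 3 low in both populations, but within each mouse mtD2+ was lower. Nid1 fell by 1.61 (SE 0.23, adjusted p = 0.00760) and passed in each fit that left out a mouse, though not without the mouse in the model (adjusted p = 0.0836). Its relative Nid2 (chromosome 14, 19751257 to 19811787) stood at 36.2, 59.4, 49.1 and 41.9 CPM in mtD2+, against 57.4, 61.5, 61.1 and 47.1 CPM in mtD2-. Nid2 was lower in each mouse by a little and did not pass the test (−0.30, SE 0.14, adjusted p = 0.242). Whether the 2 nidogens differed from each other in their fold change was not tested.

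The laminin chains did not pass the test with edgeR, but DESeq2 called Lama2 and Lama4 lower (adjusted p = 0.00844 and 0.0277). Lama2 was also called by limma voom (adjusted p = 0.0310) and by edgeR at a minimum count of 50 (adjusted p = 0.0472). Lama2, the alpha chain of muscle-type laminin, stood at 0.912, 1.60, 1.64 and 1.64 CPM in mtD2+, against 2.23, 8.70, 2.40 and 10.2 CPM in mtD2- (−1.74, SE 0.49, adjusted p = 0.0771). Lamb2 stood at 10.7, 12.1, 4.74 and 7.75 CPM in mtD2+, against 12.7, 13.1, 14.8 and 20.9 CPM in mtD2- (−0.85, SE 0.31, adjusted p = 0.149). In both genes the groups were parted. Lama4, an alpha chain of vessel laminin, stood at 2.69, 1.00, 0.753 and 1.92 CPM in mtD2+, against 1.54, 8.17, 4.54 and 7.73 CPM in mtD2-. Mouse 1 went the other way from the rest, and the value was −1.79 (SE 0.68, adjusted p = 0.163). Lamc1, the gamma chain shared by most laminins, had −0.26 (SE 0.24). Lamb1 had 4.56 CPM in the mtD2+ library of mouse 3 and 0.126 CPM, or 3 counts, in the mtD2- library of that mouse. Its fold change of −0.22 (SE 0.89) turned to 0.34 without mouse 1 and 0.37 without mouse 4.

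Matricellular and binding proteins, which modulate how cells meet the matrix, held the most calls. Of 13 tested, 9 fell, against 1.78% of all genes tested. Sparc (osteonectin, a collagen-binding glycoprotein, chromosome 11, 55394500 to 55420080) stood at 320, 399, 181 and 266 CPM in mtD2+, against 595, 551, 390 and 538 CPM in mtD2-. Within each mouse mtD2+ was lower, although the 399 CPM of mouse 2 lay above the lowest mtD2- library. Mouse 3 was lowest in both populations. It fell by 0.87 (SE 0.13, adjusted p = 0.00817), the smallest fold change among the 20 members that fell. Smoc2, a relative of Sparc (chromosome 17, 14279506 to 14404790), stood at 1.60, 3.01, 4.52 and 1.98 CPM in mtD2+, against 8.00, 13.3, 14.5 and 19.9 CPM in mtD2-. It fell by 2.35 (SE 0.33, adjusted p = 0.00713) with no overlap. Sparcl1, another relative, fell by 1.67 (SE 0.28, adjusted p = 0.0139).

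Matn2 (matrilin 2, a filament-forming adaptor) stood at 7.80, 6.83, 5.01 and 7.02 CPM in mtD2+, against 26.6, 13.2, 26.6 and 25.8 CPM in mtD2-. Mgp (matrix Gla protein, an inhibitor of calcification) stood at 4.70, 8.46, 4.56 and 5.26 CPM in mtD2+, against 32.7, 18.5, 16.9 and 14.4 CPM in mtD2-. Both had parted groups, and they fell by 1.75 (SE 0.26, adjusted p = 0.00876) and 1.81 (SE 0.30, adjusted p = 0.0122). Svep1, a large adhesion protein of mesenchymal cells (chromosome 4, 58042442 to 58206859), stood at 0.137, 1.08, 0.177 and 1.58 CPM in mtD2+, against 2.35, 6.01, 4.88 and 13.0 CPM in mtD2-. Its fold change of −3.44 (SE 0.52, adjusted p = 0.00877) was the largest drop among the members and rests on 3 to 29 counts per mtD2+ library. The exons of Svep1 share 2244 bases with the opposite-strand gene Gm26889, whose reads cannot be told apart without strand.

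Islr, Aebp1 and Tnxb, 3 genes typical of fibroblasts, fell by 2.79, 2.76 and 2.46 (SE 0.52, 0.60 and 0.57, adjusted p = 0.0192, 0.0343 and 0.0422), each with parted groups. Smoc2 and Svep1 passed in each fit that left out a mouse. Sparc lost its call without mouse 1 or 3 (−1.01 to −0.78), Sparcl1 without mouse 1 or 3 (−2.04 to −1.43), Mgp without mouse 1 or 3 (−2.05 to −1.49) and Matn2 without mouse 1 (−2.02 to −1.53). Islr lost it without mouse 1, 2 or 4 (−3.10 to −2.23), Aebp1 without mouse 2 or 3 (−3.37 to −2.13) and Tnxb without mouse 1, 2 or 3 (−3.02 to −2.13). Without the mouse in the model Sparc, Svep1, Islr, Aebp1 and Tnxb lost theirs, at adjusted p-values of 0.0863, 0.0661, 0.138, 0.0502 and 0.0528.

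Not every gene of this role was lower. Igfbp4, a secreted binding protein of insulin-like growth factors, was chosen for description after its values were seen. It stood at 324, 368, 278 and 347 CPM in mtD2+, against 296, 393, 253 and 351 CPM in mtD2-. The groups overlapped, and the fold change was 0.04 (SE 0.10, adjusted p = 0.866), with a sign that turned to −0.02 under library totals. Postn (periostin) had a positive value of 0.96 (SE 0.80, adjusted p = 0.521), and its mtD2- library of mouse 3 had 2 counts (0.0841 CPM), against 3.85 to 5.20 CPM in the other mtD2- libraries. Igfbp7 had −1.59 (SE 0.52, adjusted p = 0.112) with parted groups, and Thbs2, with at most 30 counts per library, had −0.42 (SE 1.14).

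Among the genes that process and cross-link collagen, 1 of 4 fell, against 1.78% of all genes tested. Pcolce, which speeds the trimming of procollagen (chromosome 5, 137605103 to 137613784), stood at 45.1, 66.7, 36.5 and 46.8 CPM in mtD2+, against 101, 110, 91.9 and 147 CPM in mtD2-. The groups were parted, and it fell by 1.21 (SE 0.16, adjusted p = 0.00486) whichever mouse was left out and also without the mouse in the model (adjusted p = 0.0179). The lysyl oxidases, which cross-link collagen and elastin, did not pass the test, and Loxl1 and Loxl2 had at most 38 counts in any library. Loxl2 stood at 0.0456, 0.297, 0.177 and 0 CPM in mtD2+, against 0.731, 1.17, 1.26 and 0.598 CPM in mtD2- (−3.15, SE 0.94, adjusted p = 0.0891). Loxl1 stood at 0.456, 0.482, 0.886 and 0.736 CPM in mtD2+, against 1.46, 0.870, 1.05 and 1.75 CPM in mtD2- (−0.997, SE 0.66, adjusted p = 0.414). Lox stood at 2.28, 1.78, 1.06 and 0.849 CPM in mtD2+, against 3.08, 2.95, 0.168 and 9.06 CPM in mtD2- (−0.61, SE 0.89, adjusted p = 0.733), and its sign turned to 0.28 without mouse 4. The groups of Loxl2 were parted and those of Loxl1 and Lox overlapped.

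The 4 matrix genes that macrophages or monocytes make gave 0 calls, with a median log2 fold change of −0.41. Over all genes tested, 1.78% fell and 3.72% rose, and with only 4 genes 0 calls cannot be told apart from these shares. At an unadjusted p under 0.05, with DESeq2 and with limma voom 1 of them was lower, Thbs1. Of all tested genes 4.89% were lower with DESeq2 and 2.67% with limma voom. Fn1 (fibronectin, chromosome 1, 71585520 to 71653200) stood at 331, 240, 294 and 236 CPM in mtD2+, against 262, 188, 299 and 296 CPM in mtD2-. It was higher in mice 1 and 2, lower in mouse 4 and nearly level in mouse 3, with a fold change of 0.09 (SE 0.14, adjusted p = 0.747). Ecm1, a secreted glycoprotein (chromosome 3, 95734147 to 95739569), stood at 365, 392, 322 and 344 CPM in mtD2+, against 319, 272, 368 and 467 CPM in mtD2-. It too went up in mice 1 and 2 and down in mice 3 and 4 (0.02, SE 0.16, adjusted p = 0.949), and its sign turned under 4 alternatives. A value that misses the threshold does not show that the levels were equal.

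Thbs1 (thrombospondin 1, chromosome 2, 118111876 to 118127133), an adhesion-modulating protein that also activates TGF-beta, stood at 111, 54.4, 29.9 and 73.5 CPM in mtD2+, against 162, 52.4, 70.6 and 226 CPM in mtD2-. It was lower in mice 1, 3 and 4 and nearly level in mouse 2, with a fold change of −0.83 (SE 0.24, adjusted p = 0.0841). Thbs1 was the macrophage-made gene nearest to a call. It was called without mouse 2 (−1.13, adjusted p = 0.0489), by DESeq2 (adjusted p = 0.00229) and by limma voom (adjusted p = 0.0433). Thbs1 was also called by edgeR with no low-count filter (adjusted p = 0.0186) and at a minimum count of 50 (adjusted p = 0.0464). Vcan (versican, a large proteoglycan that monocytes express) stood at 1.504, 0.557, 3.32 and 2.49 CPM in mtD2+, against 2.23, 7.79, 4.75 and 2.02 CPM in mtD2-. Its groups overlapped (−1.02, SE 0.69, adjusted p = 0.429).

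The sort gate should hold no fibroblasts or adipose precursors, but markers of these cells moved with the members. Of 22 such markers 19 were tested, 10 fell and 0 rose, against 1.78% and 3.72% of all genes tested. Also 0 rose at an unadjusted p under 0.05, with DESeq2 and with limma voom. The median log2 fold change of these markers was −1.71. Without the mouse in the model 7 fell, against 0.510% of all genes tested. Their summed level was 752, 883, 593 and 835 CPM in mtD2+, against 1896, 1712, 1705 and 4329 CPM in mtD2-, and Gsn, an actin-severing protein that is not confined to fibroblasts, was 66.1% of the mtD2- sum. Without Gsn the sums were 231, 217, 201 and 207 CPM in mtD2+, against 801, 745, 666 and 1061 CPM in mtD2-. Pdgfra, the receptor that defines these cells, stood at 1.69, 2.37, 2.08 and 3.06 CPM in mtD2+, against 4.35, 7.45, 4.92 and 18.3 CPM in mtD2-. Its log2 fold change was −1.71 (SE 0.36, adjusted p = 0.0286), and in no fit that left out a mouse did it pass. Col1a2, Col1a1 and Col6a1, which encode collagen chains and had the smallest p, had log2 fold changes of −2.56, −2.51 and −2.47 and passed in each fit that left out a mouse. Col1a1, the other defining marker, stood at 23.2, 14.99, 17.5 and 13.6 CPM in mtD2+, against 125, 108, 64.6 and 102 CPM in mtD2-. Of the markers not tested, Pdpn was at 0 in all 8 libraries, and Thy1 and Cxcl14 had few counts. The part of such cells in the result was not tested, and in bulk RNA fewer cells of a type and less RNA per cell cannot be told apart.

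**Figure D5:**
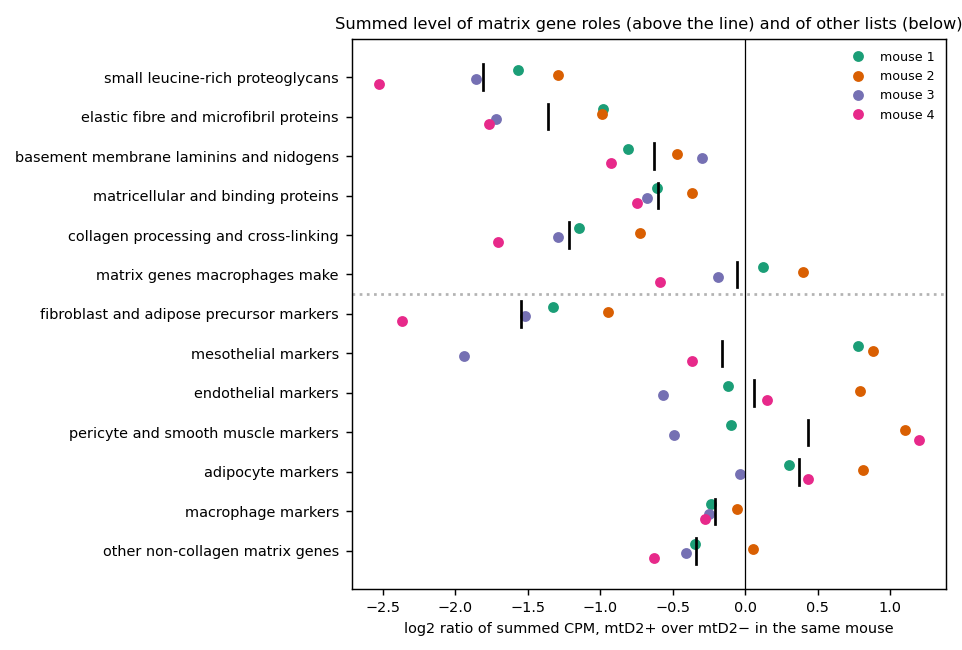
Log2 ratio of summed CPM, mtD2+ over mtD2-, in each mouse (coloured points) with the mean (black bar), for the 6 roles of the members above the dotted line and for marker and matrix lists below it. The proteoglycans (mean −1.81) lie near the fibroblast markers (−1.55), while the macrophage-made genes (−0.06) lie around 0.

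Other cells of the fat depot were represented by 4 further marker lists. None of 8 tested endothelial, 8 mesothelial, 6 pericyte and smooth muscle or 11 adipocyte markers passed the main edgeR test. In that test 1.78% of all genes fell and 3.72% rose. At a minimum count of 50 edgeR called 1 adipocyte marker higher, and with no filter 1 pericyte and smooth muscle marker lower. At an unadjusted p under 0.05, 1 endothelial, 1 mesothelial, 1 pericyte and 2 adipocyte markers were higher and 1 mesothelial marker was lower. These were Pecam1 (1.73), Krt8 (3.52), Notch3 (2.79), Cfd (0.48) and Cidec (0.62) as higher and Wt1 (−2.25) as lower. DESeq2 called 1 endothelial, 1 pericyte and 2 adipocyte markers higher, and limma voom 0 in each list. The summed endothelial markers were 13.5 to 52.7 CPM in mtD2+ and 19.97 to 31.6 CPM in mtD2-, and the mesothelial sums were 9.52 to 31.5 CPM in mtD2+ and 11.4 to 36.6 CPM in mtD2-. Pericyte sums were 12.4 to 47.8 CPM in mtD2+ and 9.61 to 22.2 CPM in mtD2-, and adipocyte sums 162 to 320 CPM in mtD2+ and 147 to 237 CPM in mtD2-. The adipocyte sums were thus of like size to the fibroblast sums without Gsn in mtD2+. Among defining markers, Cdh5 of endothelium was at 0.0443 to 3.60 CPM in mtD2+ and 0.567 to 1.56 CPM in mtD2-. Myh11 was at 0 in 1 mtD2+ library and in 3 mtD2- libraries. Msln of mesothelium was at 0.729 to 1.92 CPM in mtD2+ and 0.0378 to 3.87 CPM in mtD2-, and Adipoq of adipocytes at 6.29 to 16.7 CPM in mtD2+ and 5.93 to 11.2 CPM in mtD2-.

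The 12 macrophage markers were abundant, with sums of 17893 to 21773 CPM in mtD2+ and 21212 to 24333 CPM in mtD2-. The log2 ratio of the sums was below 0 in each mouse, at −0.24, −0.06, −0.25 and −0.28 in mice 1 to 4. Of the 12 markers 9 had negative fold changes. Of the 12, 2 fell and 1 rose, against 1.78% and 3.72% of all genes tested. DESeq2 and limma voom each called 4 lower and 1 higher (4.89% and 2.67% of all tested genes were lower). Without the mouse in the model 0 passed in either direction, and with library totals 4 fell and 0 rose. Adgre1, which encodes the sorted marker F4/80, stood at 441, 511, 421 and 489 CPM in mtD2+, against 719, 583, 639 and 800 CPM in mtD2- (−0.55, SE 0.12, adjusted p = 0.0336). C1qb, a complement chain, fell by 0.47 (SE 0.11, adjusted p = 0.0381), and Mertk, a receptor for dying cells, rose by 0.51 (SE 0.11, adjusted p = 0.0341). Adgre1 and C1qb lost their calls without mouse 1, 3 or 4 (−0.67 to −0.50 and −0.56 to −0.42 over the fits without each mouse), and Mertk lost its call without any 1 mouse (0.45 to 0.59). Fcgr1, which encodes CD64, had −0.44 (SE 0.11, adjusted p = 0.0554), and Csf1r, the receptor for the macrophage growth factor, had −0.13 (SE 0.11, adjusted p = 0.518).

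Further non-collagen matrix genes, not among the members, were listed to set them beside. Of 70 such genes 38 were tested, 3 fell and 0 rose, against 1.78% and 3.72% of all genes tested. Their median log2 fold change was −0.75. At an unadjusted p under 0.05, 15 were lower and 1 was higher. With DESeq2 12 were lower and 1 was higher (4.89% of all tested genes were lower), and with limma voom 6 and 0 (2.67%). The 3 that fell were Crispld2 (−2.21, SE 0.40), Slit3, a guidance ligand (−2.15, SE 0.39), and Hspg2, which encodes perlecan of the basement membrane (−2.49, SE 0.58). Crispld2 lost its call without mouse 2 (−2.60 to −1.80), Hspg2 without mouse 1, 3 or 4 (−3.12 to −2.18) and Slit3 without any 1 mouse (−2.33 to −1.86). Without the mouse in the model Crispld2 alone passed, with adjusted p = 0.0532 for Slit3 and 0.0651 for Hspg2. The most abundant of these genes was Tgfbi, a matrix adaptor that macrophages make, at 918 ± 108 CPM in mtD2+ and 1139 ± 165 CPM in mtD2- (−0.31, SE 0.13, adjusted p = 0.208).

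Among 26 genes for matrix receptors, 19 were tested, 2 fell and 0 rose, against 1.78% and 3.72% of all genes tested. At an unadjusted p under 0.05, 8 were lower and 1 was higher. With DESeq2 7 were lower and 1 was higher (4.89% of all tested genes were lower), and with limma voom 3 and 1 (2.67%). Itga6, the alpha chain of laminin-binding integrins, stood at 16.3 ± 2.06 CPM in mtD2+ and 37.2 ± 8.53 CPM in mtD2- (SD, n = 4 each). The groups were parted, and the log2 fold change was −1.17 (SE 0.17, adjusted p = 0.00741), no longer past the test without mouse 3 (−1.29 to −1.08). Lrp1, an endocytic receptor for many matrix ligands, stood at 252 ± 27.9 CPM in mtD2+ and 354 ± 47.1 CPM in mtD2-. It had −0.49 (SE 0.11, adjusted p = 0.0336) and passed neither in any fit that left out a mouse (−0.52 to −0.41) nor without the mouse in the model (adjusted p = 0.110). Of 11 genes of TGF-beta ligands, receptors and Smads, 1 fell, against 1.78% of all genes tested. This was Tgfb3, at 4.16 ± 1.72 CPM in mtD2+ and 10.6 ± 1.90 CPM in mtD2-. Its log2 fold change was −1.41 (SE 0.34, adjusted p = 0.05 when rounded and just under the threshold). Tgfb3 passed in no fit that left out a mouse (−1.63 to −1.07). It was also lost without the mouse in the model (adjusted p = 0.0657), and with DESeq2 size factors in edgeR 0 genes of the list passed. DESeq2 and limma voom each called 3 of the 11 lower and 0 higher. Tgfbr3, a co-receptor, had −2.56 (SE 0.63, adjusted p = 0.0506), and Tgfbr2, the signalling receptor, −0.34 (SE 0.10, adjusted p = 0.0823). Both were called by DESeq2 (adjusted p = 4.89e-05 and 0.0223) and by limma voom (adjusted p = 0.0265 and 0.0488).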

How the data were processed

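The submitters' processing notes name bcl2fastq, STAR 2.0.4b, Subread and featureCounts 1.45, with build GRCm38. The strand setting was not stated there. The deposited counts are raw reads per gene. The deposited CPM and RPKM follow from the authors' counts and gene lengths within 0.001 and entered no test. Per the labels' protocols, RNA was amplified with an ultra-low input kit. Symbols came from GENCODE M21 (40254 of 41388 genes). Genes passing edgeR's filter (minimum count 10, minimum total 15) entered a quasi-likelihood F test (edgeR 4.0.16, R 4.3.3) with TMM scaling and the mouse as a block, since the labels name each mouse. As a check of this pairing, deviations from group means correlated between the libraries of mice 1 to 4 at 0.065, 0.09, 0.185 and 0.295. Between mtD2+ and mtD2- libraries of different mice the values ran from −0.23 to 0.068, a range that holds the value of mouse 1. Each SE was taken as the size of the fold change over the root of F. Replicate libraries differed by 37.9 to 167.8 times counting noise, so none repeated another. Exons of 15 members share bases with another annotated gene. The test was also run on counts simulated with means and dispersions from these libraries. That run does not show how well the model fits the real counts.

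Members, lists and tests were chosen with earlier results of these data known. Named are the 4 macrophage-made genes, up to 5 members per other role with the smallest p, and up to 3 genes per list with the defining markers. Alternatives were the model without the mouse, other scalings and filters, DESeq2 1.42.0, limma 3.58.1 voom, and leaving out each mouse.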

Additional observations from a re-analysis of the deposited data

Results flagged for a closer look

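In a group of 4 libraries, 1 library can stand far from the other 3. Of 98 groups checked (49 genes in 2 populations) 7 did. The cutoff flags about 1 in 20 groups of normally distributed values. Low counts need not follow that distribution, so the 7 cannot be weighed against this rate. In mtD2+, Mfap4 was 10.5 CPM in mouse 1, against 1.64 to 2.48 CPM in the others. Ltbp4 was 6.09 CPM in the mtD2+ library of mouse 2, against 2.75 to 3.15 CPM, and Postn was 6.64 CPM there, against 4.01 to 4.13 CPM. Tnc was 2.00 CPM in the same library, against 0 to 0.113 CPM. Lama2 was lowest in the mtD2+ library of mouse 1, at 0.912 CPM against 1.60 to 1.64 CPM. In mtD2-, Matn2 was 13.2 CPM in mouse 2, against 25.8 to 26.6 CPM, and Tnc was 0.0385 CPM in mouse 1, which is 1 count, against 0 in the others.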

How the results depend on the processing

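All 20 members that fell also passed under DESeq2 (30 lower), limma voom (23), library totals (21), DESeq2 size factors (20), no filter (22) and a minimum count of 50 (23). No replicate block (the model without the mouse) left 12 members lower, all outside the macrophage-made genes, and 71 genes lower and 147 higher among all tested genes, against 248 and 519. DESeq2 called 681 lower and 1135 higher. Leaving out 1 mouse gave 10 to 16 members lower, also without the macrophage-made genes, and 46 to 123 genes lower and 120 to 432 higher among all tested genes. In the fits without mouse 1, 2, 3 or 4, 11, 15, 10 and 16 of the 20 kept the call. No member was called higher under any of these alternatives. The mean log2 ratio of the summed members lay between −0.80 and −0.54 over the scalings and left-out mice, and between −1.11 and −0.86 without macrophage-made genes. Signs turned in 5 members, none of them called: Lamb1 (0.338 without mouse 1, 0.365 without mouse 4, −1.109 without mouse 3), Thbs2 (0.549 without mouse 4, −1.263 without mouse 3), Lox (0.285 without mouse 4, −1.427 without mouse 3), Igfbp4 (−0.020 with library totals) and Ecm1 (−0.034 with library totals, −0.002 without the block, −0.035 without mouse 1, −0.144 without mouse 2, 0.179 without mouse 4). The cause was not tested. Since the mouse is a block, leaving out 1 library equals leaving out its mouse. Depth limits Tnc, Thbs2, Loxl1, Loxl2 and Eln, which had few counts.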
